A study of Mus musculus with 2 samples.

Results

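The genes described here are 7 CXC chemokines of the graft stroma outside the interferon-inducible group of Cxcl9 and Cxcl10: Cxcl1, Cxcl2, Cxcl5, Cxcl12, Cxcl13, Cxcl14 and Cxcl16. They were chosen by symbol, and all 7 have a row among the 28692 features of the count tables. Chemokines are small secreted proteins that steer migrating cells through G protein-coupled receptors, and in the CXC class 1 residue separates the first conserved cysteines. Cxcl1, Cxcl2 and Cxcl5 carry the ELR motif and draw neutrophils through Cxcr2, and their transcription is a classic output of NF-kB signaling. Cxcl12 acts through Cxcr4 and is scavenged by Ackr3, and in bone marrow it is a defining product of perivascular stroma. Cxcl13 draws B cells through Cxcr5 into lymphoid follicles, Cxcl14 is a broadly expressed chemokine whose main receptor is not settled, and Cxcl16 is made as a transmembrane protein that is shed by Adam10 and Adam17 and is read by Cxcr6 on T cells and innate lymphocytes.

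Small intestine (SI) and large intestine (LI) of midgestation embryos from EYFP males and C57BL/6Nrj females (strain EYFP on C57BL/6 by the labels) were placed under the kidney capsule of adult WT mice, and mesenchymal stromal cells (MSC) were sorted from the grafts 4 weeks later for single-cell RNA-seq. The EYFP mice came from crossing R26R.EYFP with a Cre line that is not named, and the YFP+ gate keeps cells of the graft and not of the host. The sort kept live Itgb1+ YFP+ cells and removed cells positive for CD45, Ter119, BP3, CD31, EpCAM or L1CAM, and both groups share every one of these steps. There was 1 library per group, from 3 pooled colonic grafts for LI and a number of grafts not stated for SI, so no test between LI and SI was possible, and every interval below is a 95% interval that covers counting error only and treats UMIs (unique molecular identifiers, 1 per captured transcript) as independent. UMIs of 1 cell are not independent, so the true spread is wider, and the spread between grafts is unknown.

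Cells under 500 genes or over 10% mitochondrial UMIs were set aside, which left 9873 of 11568 LI cells and 7910 of 9631 SI cells, with medians of 5288 and 5682 UMIs per cell, and 26 cell barcodes occurred in both libraries. Cells were assigned to classes by counting markers with a UMI, and 11 classes held at least 50 cells in both libraries. Fibroblasts (FB) made up 8075 LI and 5773 SI cells, and were divided into PDGFRAhi FB (582 and 434 cells), CD81 FB (1045 and 1385), Pi16 FB (481 and 194), Fgfr2 FB (890 and 659), FB that passed several subset gates (748 and 612) and FB that passed none (4329 and 2489). The other classes were Myh11- pericytes (291 and 363 cells), Myh11+ mural cells (284 and 748), smooth muscle cells (SMC, 514 and 601), interstitial cells of Cajal (ICC, 371 and 57) and cells of the immune gate (100 and 75). The data go against reading the last as immune cells alone. Their 6 fibroblast markers summed to 27160 CPM in LI and 41450 CPM in SI, against 40500 and 51200 CPM in fibroblasts. Their 7 immune markers summed to 3712 and 1257 CPM, above the fibroblast values given below. Clustering placed only 42 and 23 cells in immune clusters, and 76.2% and 65.2% of these lay in this gate. Most Fgfr2 FB (731 of 890 in LI and 498 of 659 in SI) stood exactly at the gate. So did most CD81 FB (815 of 1045 and 923 of 1385) and most Pi16 FB (261 of 481 and 103 of 194). These classes are therefore loosely bounded. In LI the 6 Fgfr2 FB markers summed to 10820 CPM in PDGFRAhi FB and 8083 CPM in Fgfr2 FB, so their level does not separate these classes there. The 7 PDGFRAhi FB markers summed to 1708 and 134 CPM. Single-cell shares are given after each cell was thinned to 2000 UMIs, with the unthinned share where it is named.

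The promoters of Cxcl1, Cxcl2 and Cxcl14 are shown here: Cxcl1 and Cxcl2 rose along the ranking by NF-kB response genes in both grafts below, and Cxcl14 took opposite directions in them. Each is the 250 bases before the transcript start in RefSeq (GRCm38.p6), 5′ to 3′ on the strand of the gene. The Cxcl1 window lies at chr5:90890995-90891244 (plus strand), the Cxcl2 window at chr5:90903649-90903898 (plus strand) and the Cxcl14 window at chr13:56296552-56296801 (minus strand).
Cxcl1: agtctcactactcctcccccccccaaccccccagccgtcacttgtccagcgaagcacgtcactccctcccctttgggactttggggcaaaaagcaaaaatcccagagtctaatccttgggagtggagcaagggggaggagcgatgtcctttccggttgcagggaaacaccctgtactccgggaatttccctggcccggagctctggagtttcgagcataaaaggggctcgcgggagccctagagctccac
Cxcl2: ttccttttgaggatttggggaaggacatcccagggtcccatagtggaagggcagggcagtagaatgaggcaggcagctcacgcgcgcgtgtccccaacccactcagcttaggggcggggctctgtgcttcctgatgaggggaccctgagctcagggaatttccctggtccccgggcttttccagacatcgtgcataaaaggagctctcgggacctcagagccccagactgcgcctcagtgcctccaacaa
Cxcl14: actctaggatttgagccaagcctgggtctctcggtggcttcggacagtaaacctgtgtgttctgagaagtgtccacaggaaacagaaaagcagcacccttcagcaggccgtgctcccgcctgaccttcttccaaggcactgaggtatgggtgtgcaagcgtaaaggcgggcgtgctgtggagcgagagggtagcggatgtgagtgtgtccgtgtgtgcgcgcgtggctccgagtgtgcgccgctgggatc

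The RefSeq promoter table held a window for 5 of the 7 members (Cxcl1, Cxcl2, Cxcl12, Cxcl13 and Cxcl14). In the GENCODE annotation of mm10, Cxcl5 (chr5:90759360-90761624), Cxcl1 (chr5:90891241-90893115), Cxcl2 (chr5:90903871-90905938) and Cxcl13 (chr5:95956951-95961068) lie on the plus strand of chromosome 5, Cxcl12 (chr6:117168535-117181367) is on the plus strand of chromosome 6, Cxcl14 (chr13:56288643-56296551) is on the minus strand of chromosome 13 and Cxcl16 (chr11:70453983-70459984) on the minus strand of chromosome 11.

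Cxcl1 was the most abundant of the 7 in fibroblasts of both grafts, at 931 CPM (UMIs of the gene per 1000000 UMIs of the class, counted at a transcript end and so not scaled by length) in LI and 979.9 CPM in SI, and was read in 39.4% of LI and 44.1% of SI fibroblasts (49.8% and 53.4% unthinned). It was not a fibroblast gene alone. In LI the level ran from 1836 CPM in Pi16 FB, the adventitial-like class, through 1300 CPM in Myh11- pericytes and 1222 CPM in Myh11+ mural cells, to 314 CPM in PDGFRAhi FB, the class that lies under the epithelium, and 150.5 CPM in ICC. In SI the Myh11- pericytes came first with 2443 CPM, followed by Pi16 FB with 1845 CPM and Myh11+ mural cells with 1770 CPM, and PDGFRAhi FB (249.5 CPM) and ICC (27.6 CPM, from 8 UMIs in 57 cells) again came last. FB of several gates held 1343 CPM in LI, next to Pi16 FB, and 1256 CPM in SI, next to the mural cells. The 4 highest classes were thus the same in both grafts (Pi16 FB, FB of several gates, Myh11- pericytes and Myh11+ mural cells), and the order from CD81 FB downwards was the same in both. The counting intervals of Pi16 FB and Myh11+ mural cells overlapped in SI, as did those of FB of several gates and the pericytes, and of the pericytes and mural cells, in LI.

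The ICC gave the lowest Cxcl1 share, 8.08% of LI and 3.77% of SI cells after thinning (12.7% and 7.02% unthinned, at medians of 4326 and 4610 UMIs), and this is the level that free RNA in the droplets could reach. PDGFRAhi FB stood above it, with 25.8% in LI and 24.0% in SI at medians of 5000 and 5959 UMIs. Pi16 FB reached 49.6% and 63.4%, and Myh11- pericytes 56.6% and 69.8%. The share and the level therefore ranked differently at the top: in LI the pericytes and mural cells had more positive cells than Pi16 FB, while the positive Pi16 FB carried 29.6 UMIs each against 10.2 in the pericytes, unthinned and at medians of 8371 and 4238 UMIs per cell.

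Cxcl2, the closest relative of Cxcl1 and its neighbour on chromosome 5, was several-fold lower, with 102.5 CPM in LI and 146 CPM in SI fibroblasts and 4.42% and 10.1% positive cells (7.89% and 15.02% unthinned). In ICC the share was 1.11% in LI and 0 of 53 cells in SI. Its order of classes differed between the grafts. In LI the cells of the immune gate were highest with 589 CPM, but 162 of its 444 UMIs came from 1 cell and the level without that cell was 377 CPM, still above Pi16 FB at 267 CPM. In SI the highest level was in Fgfr2 FB, at 248 CPM, where LI had 51.4 CPM. Intervals of the 5 leading SI classes overlapped from each to the next (Fgfr2 FB, Myh11- pericytes, immune gate, FB of several gates and Myh11+ mural cells), so SI had no clear leader. ICC were lowest again, with 22 UMIs in 371 LI cells (11.9 CPM) and 0 UMIs in 57 SI cells, which allows up to 10.4 CPM.

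Cxcl5, also named LIX and induced in many epithelial and stromal cells by IL-17 and IL-1, was rare. Fibroblasts held 22.3 CPM in LI and 24.7 CPM in SI, and 1.37% and 2.39% of them were positive (3.02% and 4.97% unthinned), against 0.202% of LI SMC and 0.721% of SI PDGFRAhi FB. In LI the highest levels were in FB of several gates (54.6 CPM) and Pi16 FB (43.4 CPM), and Fgfr2 FB had 8.503 CPM. In SI these stood the other way round, with 46.9 CPM in Fgfr2 FB and 13.7 CPM in FB of several gates. Single cells set several of the remaining values: all 19 UMIs of the SI ICC came from 1 cell, as did 29 of the 31 UMIs in LI Myh11- pericytes and 23 of the 46 in SI Pi16 FB. All 10 neighbouring pairs of classes overlapped in SI, so neighbours in that order cannot be told apart, although Fgfr2 FB stood above CD81 FB (8.69 CPM) beyond the counting error.

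**Figure D1:**
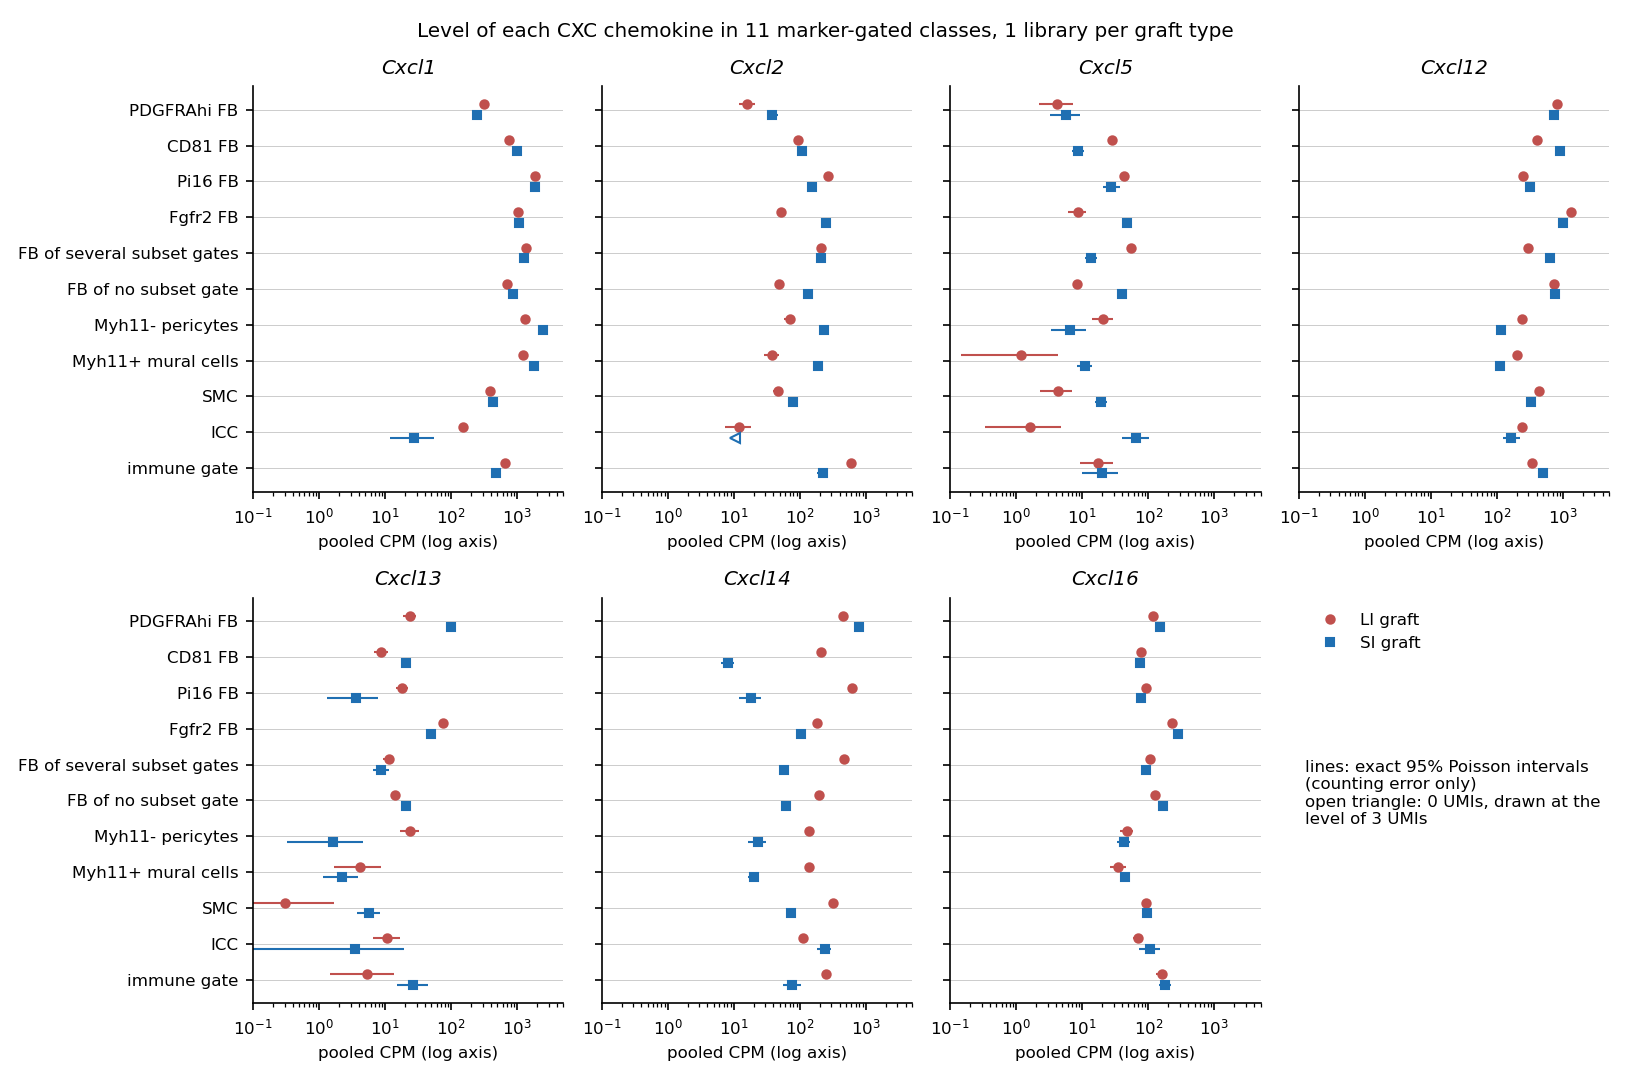
Level of each chemokine (CPM, log axis) in the 11 stromal classes of the LI and SI graft libraries; points are pooled levels and bars are 95% counting intervals, with 1 library per group. Cxcl12 and Cxcl16 peak in Fgfr2 FB in both grafts, whereas Cxcl14 peaks at 613 CPM in Pi16 FB of the LI graft and at 788 CPM in PDGFRAhi FB of the SI graft in these pooled levels, though not with per-cell means, thinning or clusters.

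Cxcl12 was the second most abundant member in fibroblasts and the most widely read, with 629 CPM in LI and 786 CPM in SI and 52.8% and 62.5% positive cells (69.1% and 80.8% unthinned). Fgfr2 FB led in both grafts, at 1333 CPM in LI and 1000 CPM in SI, and 81.6% and 79.6% of them were positive. Myh11+ mural cells were lowest in both, at 204 and 112 CPM, and Myh11- pericytes were next to lowest at 239.7 and 117 CPM. In LI the counting intervals of Pi16 FB, ICC, pericytes and mural cells overlapped from each to the next. Those of ICC, pericytes and mural cells did so in SI. The cells of the vessel wall, which were high for Cxcl1, were thus among the lowest for Cxcl12 in both grafts. Their positive share of 12.6% in SI mural cells at a median of 5658 UMIs bounds what free RNA could give there, as does 22.7% in LI mural cells at a median of 5305 UMIs. PDGFRAhi FB held 820.0 CPM in LI and 734 CPM in SI, and Pi16 FB held 248.5 and 322 CPM. CD81 FB held 403.5 CPM in LI and 911.5 CPM in SI, a log2 ratio of LI over SI of -1.17. FB of several gates (294.5 and 630.1 CPM) were also past 2-fold lower in LI, and Myh11- pericytes past 2-fold higher. In female cells alone the ratio was -0.09 in CD81 FB and 0.03 in FB of several gates, neither past 2-fold, and in male cells it was -3.07 and -2.97.

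Cxcl13 is best known from follicular dendritic cells and other lymphoid stroma, which the BP3- gate removes from the sample, and the BP3 gene Bst1 was at 0.118 CPM in LI and 0.0538 CPM in SI fibroblasts. Cxcl13 was the least abundant member in LI, at 19.7 CPM, and second to least in SI, at 27.0 CPM, with 2.20% and 3.05% of fibroblasts positive (3.94% and 6.39% unthinned), against 0 of 496 LI SMC and 0.135% of SI Myh11+ mural cells. In LI it was highest in Fgfr2 FB, at 74.2 CPM from 375 UMIs in 58 cells (57.03 CPM without the cell that held 87 of them). In SI, PDGFRAhi FB came first with 98.9 CPM, but 1 cell held 161 of the 279 UMIs, and the level without it was 42.0 CPM, below the 50.2 CPM of Fgfr2 FB (47.2 CPM without its own highest cell). SMC and Myh11+ mural cells held 0.302 and 4.15 CPM in LI and 5.67 and 2.24 CPM in SI, from 1 to 26 UMIs per class. The Fgfr2 and PDGFRAhi FB therefore had the highest Cxcl13 levels in both grafts once the single highest cell of each class is left out.

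Cxcl14 had a different leading class in each graft by pooled CPM. In SI it was a PDGFRAhi FB transcript: 788 CPM and 50.7% positive cells (68.4% unthinned, median 5959 UMIs) against 8.08 CPM and 1.54% positive cells (4.19% unthinned, median 6592 UMIs) in CD81 FB, the lowest class, and PDGFRAhi FB stood 15.9-fold above all other gated SI cells. In LI the PDGFRAhi FB held 454 CPM with 36.1% positive, yet Pi16 FB were higher at 613 CPM with 20.1% positive, and no class fell below the 111 CPM of ICC. The positive Pi16 FB of LI carried 17.2 UMIs each, against 4.66 in the PDGFRAhi FB, unthinned and at medians of 8371 and 5000 UMIs per cell. The lowest LI share was 7.80% in ICC (14.0% unthinned, median 4326 UMIs), which bounds what free RNA could give there, and LI CD81 FB stood at 15.7%. With the mean of per-cell CPM, with cells thinned to 2000 UMIs or with clusters in place of gates, PDGFRAhi FB led in both grafts. The SI levels in Pi16 FB (18.0 CPM, 30 UMIs) and CD81 FB were near the bottom, so the highest LI over SI ratios of any member lay here: a log2 ratio of 5.01 in Pi16 FB and of 4.53 in CD81 FB. In female cells alone these were 4.63 and 2.82, from 61.7 CPM in LI and 7.86 CPM in SI for CD81 FB. The direction was the opposite in PDGFRAhi FB (-0.79) and in ICC (111 CPM in LI and 238 CPM in SI, -1.10). In total 9 of 11 classes were higher in LI and 2 in SI, with no interval that held 0.

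Cxcl16 was even and low per cell. Fibroblasts held 122 CPM in LI and 136 CPM in SI, and 21.2% and 22.2% were positive (43.1% and 45.2% unthinned), with 1.77 and 1.94 UMIs per positive cell. Fgfr2 FB were highest in both grafts, at 231 and 278 CPM, which is 2.21-fold and 2.63-fold above all other gated cells, and the cells of the immune gate, which held fibroblast markers at the levels given above, were second in both, at 159 and 179.9 CPM. Myh11- pericytes and Myh11+ mural cells were lowest in both, between 35.0 and 47.2 CPM, with 3.96% to 7.10% positive cells at medians of 3863 to 5658 UMIs, which bounds the free-RNA share. The LI over SI log2 ratio over the 11 classes ran only from -0.62 to 0.24, and in 6 of them its interval held 0.

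Across the 7 genes, 2 (Cxcl12 and Cxcl16) had the same leading class in LI and SI, Fgfr2 FB each time, against 41.4% of 10149 genes that reached 10 CPM in a class of each library. Only Cxcl16 of the 7 was also at least 2-fold above the other cells in that class in both, against 13.1% of genes. These counts of 2 of 7 and 1 of 7 are near or under the background, so they say nothing particular about these chemokines.

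Over all fibroblasts, 1 member differed by at least 2-fold between the grafts, Cxcl14, with 299 CPM in LI and 105 CPM in SI (log2 ratio 1.50, interval 1.45 to 1.55). With the mean of per-cell CPM its ratio was 0.99 and no member was past 2-fold, while Cxcl2 was also past 2-fold after thinning (-1.05), in female cells (-1.05) and without the 1% of cells with the most UMIs (-1.57). The background was 304 of 8625 genes at 10 CPM or more, 3.52%. The other 6 members were all lower in LI by less than that: Cxcl2 by a log2 ratio of -0.51, Cxcl13 of -0.44, Cxcl12 of -0.32, Cxcl16 of -0.16, Cxcl5 of -0.14 and Cxcl1 of -0.07. The median of all 7 was -0.16 against -0.01 over all genes. For comparison Cxcl9 and Cxcl10, the interferon-inducible ligands of Cxcr3, held 313 and 512 CPM in LI and 716 and 1786 CPM in SI, log2 ratios of -1.19 and -1.80. By sex these were -0.76 in female and -0.43 in male cells for Cxcl9, under 2-fold in each, and -1.65 and -1.43 for Cxcl10. The kit used for each library, with priming at the 3′ or the 5′ end, is not stated per library, and its part in these ratios was not tested. In fibroblasts the 7 pericyte markers summed to 221 CPM in LI and 732 CPM in SI, and to 156 and 73.8 CPM without Rgs5 (64.7 and 658 CPM), while the 7 immune markers summed to 37.2 and 43.0 CPM and the 7 SMC markers to 149 and 173 CPM, with none of these markers at 0. The part of this in the Cxcl1 ratio was not tested.

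The sex of the donor embryo, read for each cell from Xist and Y-linked genes, also differed between the libraries. Of the fibroblasts that could be called, 10.3% were male in LI and 28.2% in SI, and within LI the male share ran from 1.63% in Fgfr2 FB to 29.6% in CD81 FB. Sex and the pooled graft cannot be told apart, since every male cell comes from a male embryo's graft. Cxcl12 and Cxcl5 moved most with it in LI. For Cxcl12, LI male fibroblasts held 124 CPM and female fibroblasts 768 CPM (log2 ratio -2.62), and males were lower in all 4 subsets with at least 50 cells of each sex: 137 against 596 CPM in CD81 FB, 63.2 against 289.8 CPM in Pi16 FB, 88.7 against 433 CPM in FB of several gates and 116 against 825 CPM in FB of no gate. In SI the direction over all fibroblasts was the other, with 897 CPM in male and 651 CPM in female cells (0.46). In female fibroblasts alone the LI over SI log2 ratio was 0.24, and in male fibroblasts it was -2.85.

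The other members changed as well when the sexes were taken apart. In LI the male fibroblasts were higher for Cxcl5 (66.4 against 8.87 CPM), Cxcl2 (198 against 77.4 CPM), Cxcl14 (429.5 against 252 CPM) and Cxcl1 (1237 against 862 CPM), and lower for Cxcl13 (7.47 against 23.7 CPM) and Cxcl16 (80.3 against 132 CPM). The corresponding SI ratios were smaller for all of these, between -0.26 for Cxcl14 and 0.21 for Cxcl1 on the log2 scale. Within CD81 FB of LI, Cxcl14 held 474 CPM in 258 male cells and 61.7 CPM in 613 female cells. In Pi16 FB of LI the direction was the other for Cxcl1 (1230 CPM in 51 male and 1989 CPM in 379 female cells), Cxcl2 (108 and 267 CPM) and Cxcl14 (384 and 608 CPM), but not for Cxcl5 (98.7 and 31.7 CPM). The Cxcl14 ratio between the grafts kept its direction in both sexes, 1.25 in females and 2.28 in males, whereas Cxcl1, Cxcl2 and Cxcl5 were lower in LI in females (-0.11, -1.05 and -1.44) and higher in LI in males (0.20, 0.48 and 1.41).

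**Figure D2:**
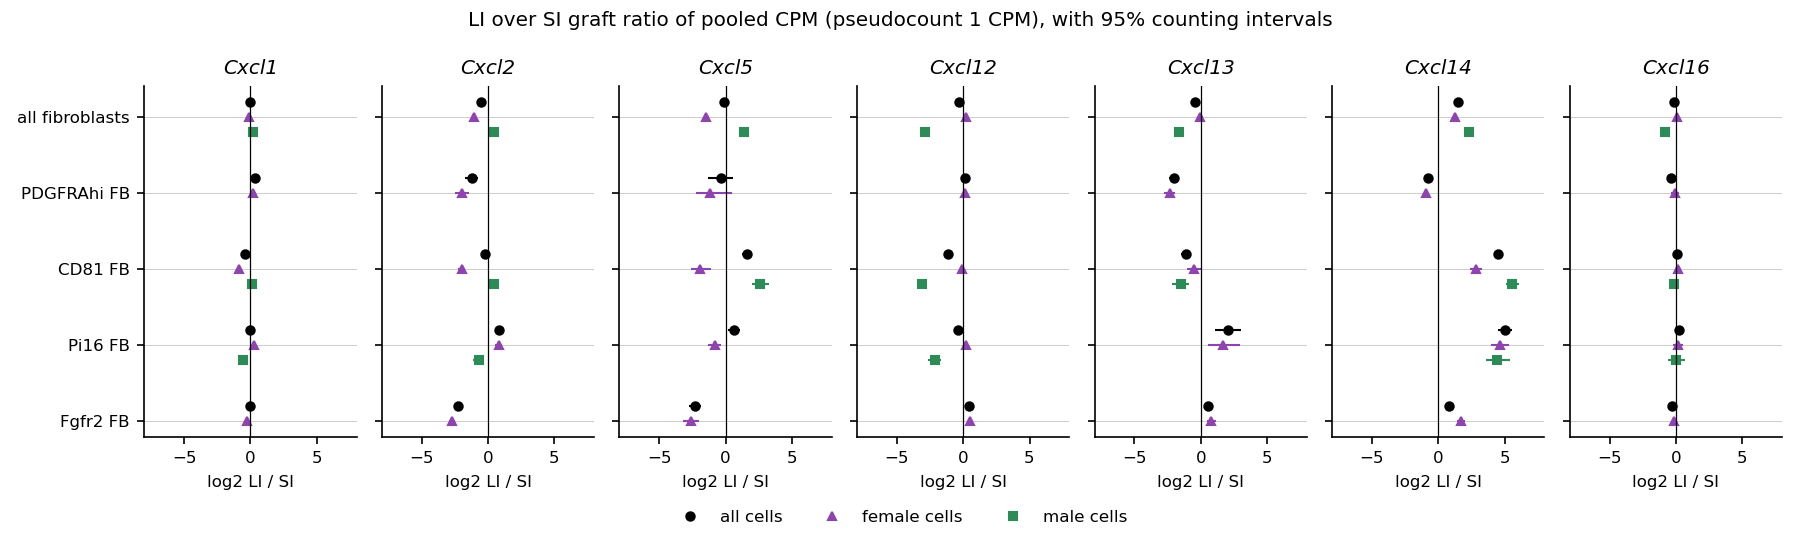
LI over SI log2 ratio (pseudocount 1 CPM) of each chemokine in all, female and male cells, with 95% counting intervals and 1 library per group. Rows are all fibroblasts and the PDGFRAhi, CD81, Pi16 and Fgfr2 FB. The other classes are not drawn, nor are points with 0 UMIs or under 50 cells in either library. Cxcl14 is at 1.50 in all fibroblasts and right of 0 in both sexes, and Cxcl12 moves from 0.24 in females to -2.85 in males.

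**Figure D3:**
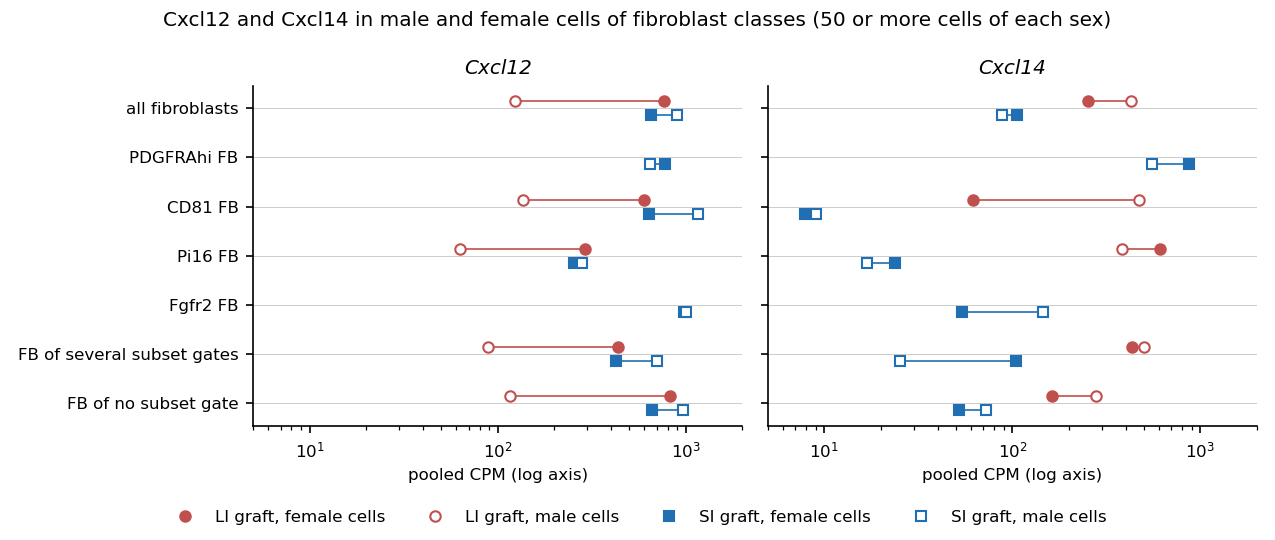
Level of Cxcl12 and Cxcl14 (CPM, log axis) in female (filled) and male (open) cells of all fibroblasts and of fibroblast classes within each library. Classes with at least 50 cells of each sex are drawn. Lines join the male and female levels and are not intervals. In LI the male Cxcl12 level of 124 CPM lies far below the female 768 CPM, while in SI the male level of 897 CPM is above the female 651 CPM.

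The 7 genes differed in how their UMIs were spread over fibroblasts. Cxcl12 and Cxcl16 were held broadly: 50% of their UMIs came from 13.2% and 11.5% of LI fibroblasts and from 15.04% and 11.1% of SI fibroblasts. Cxcl1 was narrower, with 4.58% of LI and 7.40% of SI cells, and Cxcl14 narrower still with 1.59% and 1.54%. Cxcl5 and Cxcl13 in both grafts and Cxcl2 in LI were concentrated in fewer cells still, while Cxcl2 in SI was no narrower than Cxcl14. The top 1% of cells held 41.5% of the Cxcl14 UMIs in LI and 40.5% in SI. In LI, 36 of 8075 fibroblasts (0.446%) held 50% of the Cxcl2 UMIs and the top 1% of cells held 69.9%, against 108 of 5773 (1.87%) and 35.4% in SI. For Cxcl5 the top 1% held 82.2% in LI and 64.4% in SI, and for Cxcl13 70.7% and 56.9%. The highest single fibroblast had 270 UMIs of Cxcl1, 259 of Cxcl14, 183 of Cxcl2, 161 of Cxcl13 and 110 of Cxcl5, but 71 of Cxcl12 and 18 of Cxcl16. For the concentrated genes the counting interval of a pooled level is therefore far too narrow, and without the 1% of cells with the most UMIs of each gene the LI over SI log2 ratio of Cxcl2 was -1.57 in place of -0.51, that of Cxcl5 -0.97 in place of -0.14 and that of Cxcl13 -0.90 in place of -0.44.

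**Figure D4:**
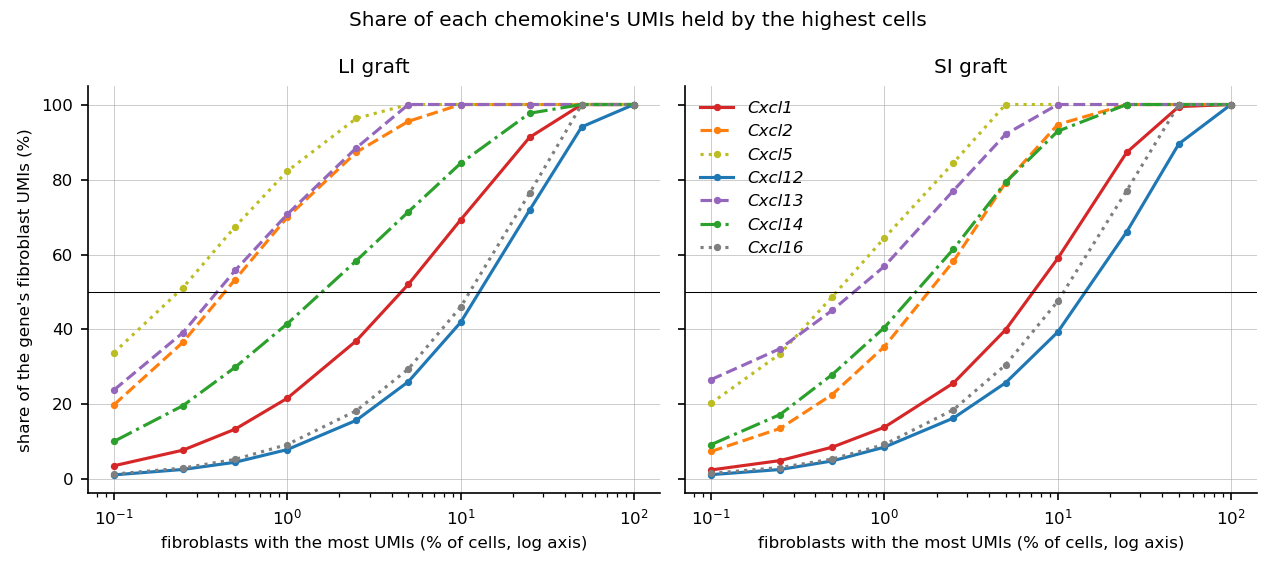
Cumulative share of the UMIs of each chemokine (percent) against the share of fibroblasts, ranked from the cell with the most UMIs, in the LI and SI graft libraries. The curves of Cxcl5, Cxcl13 and Cxcl2 rise at once, with 82.2%, 70.7% and 69.9% of UMIs in the top 1% of LI cells, and those of Cxcl12 (7.97%) and Cxcl16 (9.33%) rise slowest.

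Cells that read Cxcl1 also read Cxcl2 more often. After thinning, Cxcl2 was found in 8.54% of the Cxcl1-positive and 1.74% of the Cxcl1-negative LI fibroblasts (252 of 7496 cells had both), and in 18.3% and 3.64% of the SI fibroblasts (436 of 5405 cells). Cxcl5 was found in 2.68% of Cxcl1-positive and 0.528% of Cxcl1-negative cells in LI, but the SI values of 2.89% and 1.99% lay closer together. Cxcl13 was found in 3.28% of Cxcl12-positive and 0.990% of Cxcl12-negative cells in LI, and in 4.12% and 1.28% in SI. In SI, Cxcl14 was read in 29.7% of the Cxcl13-positive and 8.36% of the Cxcl13-negative cells, with 27.9% and 17.9% in LI. These are shares of cells of 1 library each and carry no test.

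To see which transcriptional program each chemokine followed, fibroblasts of each library were ranked by the summed level of a list of genes that holds no chemokine of the 7, and the top 25% of cells were compared with the bottom 25% (2019 LI and 1444 SI cells each). By the 15 genes of the NF-kB response (Nfkbia, Nfkbiz, Tnfaip3, Icam1, Il6, Ccl2 and others), the ELR chemokines rose steeply with the ranking. Cxcl1 went from 167 CPM in the bottom to 2027 CPM in the top cells in LI and from 91.5 to 2245 CPM in SI, log2 differences of 3.59 and 4.60. Cxcl2 went from 7 to 290.5 CPM and from 10.0 to 348 CPM (5.19 and 4.98), and Cxcl5 from 1.53 to 60.4 CPM and from 7.49 to 41.2 CPM (4.60 and 2.31). All 3 ELR members and none of the other 4 were 2-fold higher in the top cells of both libraries, against 2.18% of 8625 genes. The rise was not particular to them, since Cxcl9 (2.89 in LI and 2.88 in SI) and Cxcl10 (4.43 and 5.02) also rose along this ranking. The top cells were deeper (medians of 6507 against 4806 UMIs in LI and 6792 against 4934 in SI), and 21.8% of the top and 4.36% of the bottom cells of LI were called male. In SI 30.3% of the top and 17.2% of the bottom cells were called male. The shares of PDGFRAhi FB and Pi16 FB also differed between top and bottom cells, as given below. The part of depth, sex and class in these differences was not tested.

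The other members did not follow that ranking together. Cxcl13 differed by 0.88 in LI and 1.08 in SI, Cxcl16 by 0.11 and -0.21, and Cxcl12 by -0.61 in LI and 0.41 in SI. Cxcl14 had opposite signs, going from 224 to 445 CPM in LI (0.99) and from 222.5 to 26.2 CPM in SI (-3.04). PDGFRAhi FB, its main SI source, made up 16.0% of the bottom and 0.969% of the top SI cells, and 10.1% and 2.63% of those of LI. Pi16 FB, its highest LI class by pooled CPM, made up 5.70% of the bottom and 10.2% of the top LI cells. In SI the Pi16 FB made up 2.08% of the bottom and 4.36% of the top cells. The part of class in these differences was not tested.

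Ranking by 12 interferon response genes (Irf1, Gbp2 and others) gave smaller differences for the 7 than for Cxcl9 and Cxcl10. Cxcl9 and Cxcl10 differed by 4.67 and 5.24 on the log2 scale in LI and by 6.32 and 4.09 in SI. Of the 7, Cxcl13 (1.91 and 1.56) and Cxcl5 (1.24 and 1.49) were 2-fold higher in both libraries, against 1.77% of genes. Male cells made up 16.2% of the top and 5.25% of the bottom cells in LI and 36.8% and 12.4% in SI, and Fgfr2 FB 14.1% and 6.39% in LI and 11.9% and 6.17% in SI. PDGFRAhi FB made up 9.16% and 4.61% in LI and 7.69% and 5.06% in SI. The part of sex and class in these differences was not tested. Cxcl1 differed by 0.95 and 1.73, Cxcl2 by 0.03 and 1.37, Cxcl12 by 0.55 and 0.90, Cxcl16 by 0.63 and 0.75 and Cxcl14 by -0.24 and 0.74. Ranking by 11 immediate early and heat shock genes, which rise during tissue digestion, raised Cxcl1 from 327 to 1171 CPM in LI (1.84) and from 48.5 to 1942 CPM in SI (5.29), so that Cxcl1 alone of the 7 was 2-fold higher in both, against 2.74% of genes. Cxcl2 differed by -0.29 in LI and 4.11 in SI, while Cxcl14 (-1.62 and -2.75) and Cxcl5 (-1.78 and -1.62) were lower in the top cells of both. PDGFRAhi FB made up 2.22% of the top and 14.5% of the bottom cells in SI, but 8.42% and 6.84% in LI. Pi16 FB made up 1.68% of the top and 9.17% of the bottom cells in LI, but 4.09% and 1.87% in SI. CD81 FB made up 7.78% and 14.2% in LI, but 30.8% and 17.4% in SI. Male cells made up 2.23% of the top and 13.4% of the bottom cells in LI, but 26.4% and 19.3% in SI. Median UMIs were 5310 in the top and 5147 in the bottom cells of LI, and 6358 and 5006 in SI. The part of class, sex and depth in these differences was not tested. Cxcl1 thus moved with the digestion-sensitive genes as well as with the NF-kB list, and how much of its level arose during cell isolation was not tested.

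**Figure D5:**
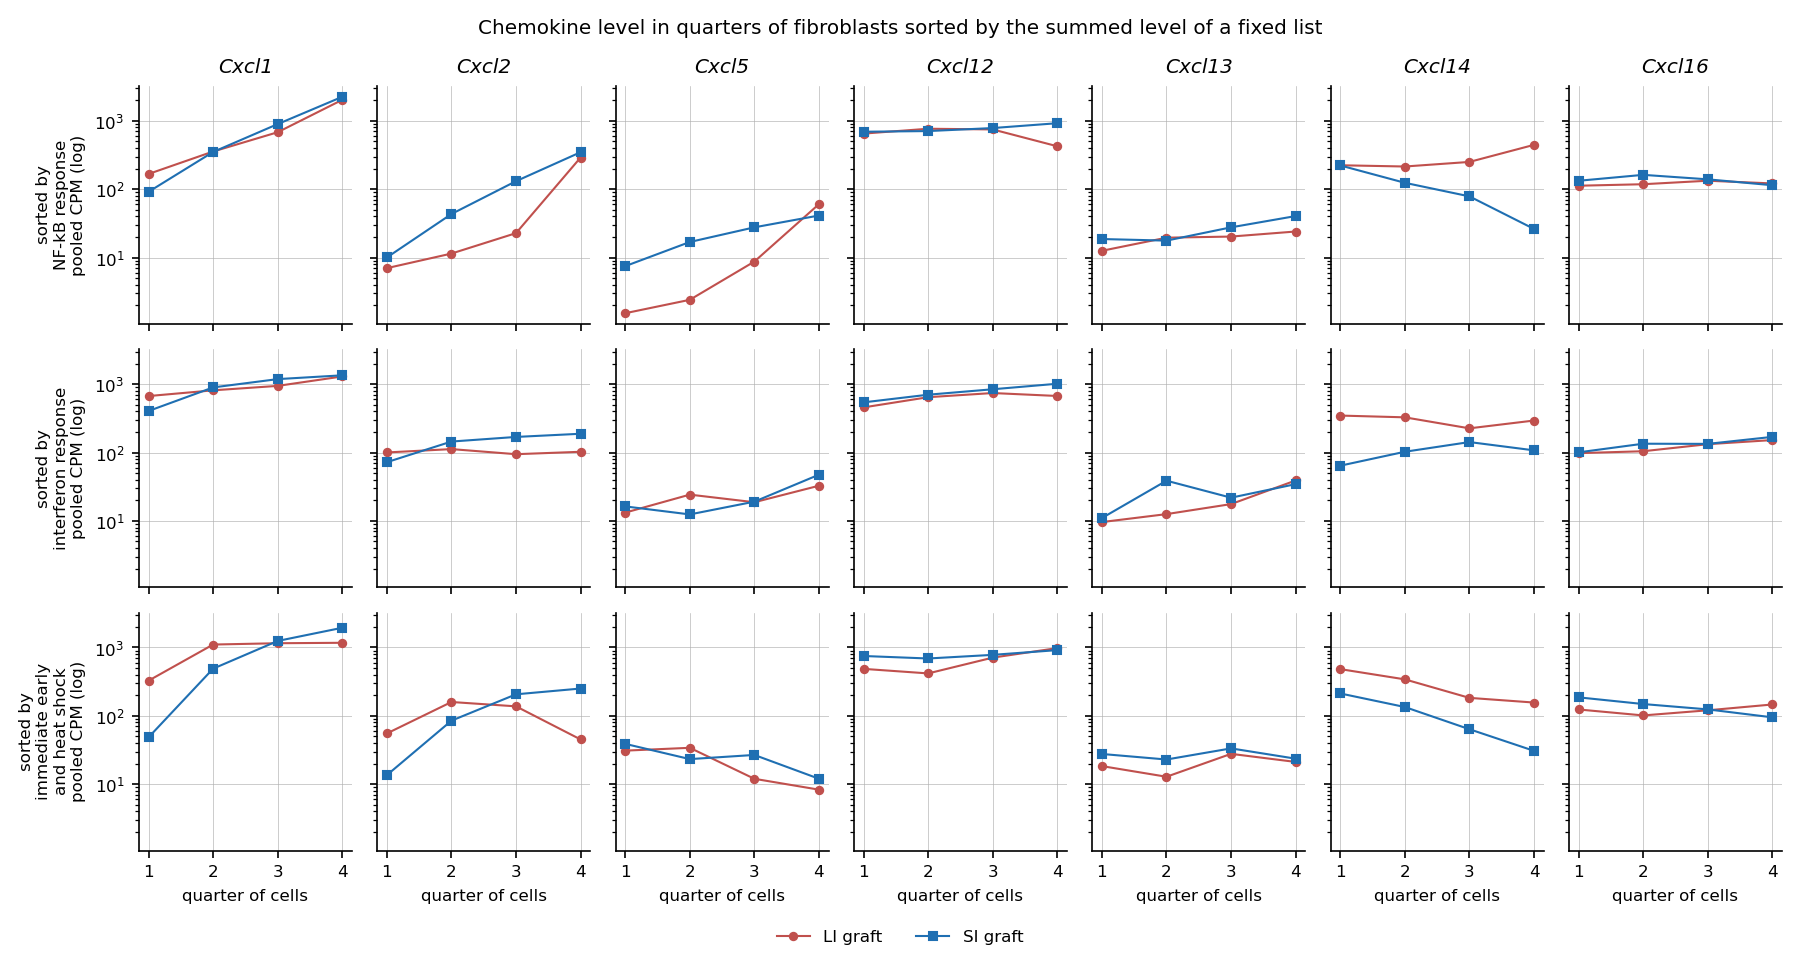
Level of each chemokine (CPM, log axis) in 4 equal bins of fibroblasts ranked by the NF-kB response, interferon response or immediate early and heat shock genes, in the LI and SI graft libraries. Cxcl1 climbs from 167 to 2027 CPM in LI and from 91.5 to 2245 CPM in SI along the NF-kB ranking, and Cxcl14 falls from 222.5 to 26.2 CPM in SI.

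All 15 NF-kB response genes reached 10 CPM in fibroblasts, and 4 were past 2-fold higher in LI, against 1.91% of 8625 genes, and none in SI, with a median log2 ratio of -0.18. Nfkbia, which encodes the inhibitor IkBa and is among the first NF-kB targets, held 727 CPM in LI and 882 CPM in SI, and Nfkbiz held 252 and 403.5 CPM. The 4 past 2-fold were the monocyte chemokines Ccl2 (526 and 253 CPM) and Ccl7 (432 and 98.4 CPM) with Ptgs2 and Lif. Of 11 receptors and adaptors that feed NF-kB, 10 reached 10 CPM and none was past 2-fold, among them Tnfrsf1a (169 and 178 CPM) and the IL-1 receptor Il1r1 (105 and 82.6 CPM), the highest in both grafts, and Ltbr (66.9 and 71.0 CPM) and Osmr (75.9 and 64.9 CPM). Of 12 interferon response genes, 8 were past 2-fold higher in SI, against 1.61% of all genes, and none in LI (median -1.09), and none of 11 immediate early and heat shock genes was past 2-fold (median 0.03).

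The receptors of these chemokines were nearly absent from fibroblasts. Cxcr2 held 0 and 0.0269 CPM in LI and SI, Cxcr4 0.296 and 0.376 CPM, and Cxcr6 0.0788 and 0.134 CPM, and of 10 receptors and scavengers only Ackr3 and Ackr4 reached 10 CPM. Ackr3, the scavenger of Cxcl12, held 23.2 CPM in LI and 21.4 CPM in SI, with its peak in Pi16 FB at 83.7 and 90.8 CPM, a class that was low for Cxcl12. Ackr4, which takes up Ccl19, Ccl21 and Ccl25 and is itself a marker of the CD81 gate, held 14.9 and 82.3 CPM. The sheddases of Cxcl16, Adam10 (32.7 and 42.2 CPM) and Adam17 (35.6 and 38.7 CPM), were at like levels in both grafts, and Dpp4, which trims Cxcl12 and is a marker of the Pi16 gate, stayed under 10 CPM over all fibroblasts. In the cells of the immune gate, Cxcr4 held 26.5 and 12.5 CPM and Cxcr6 6.63 and 28.5 CPM.

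Of 7 genes of lymphoid stroma, 2 reached 10 CPM, Pdpn (239 and 156 CPM) and Tnfsf13b (13.1 and 21.4 CPM), which encodes the B cell survival factor BAFF, and none was past 2-fold. Of 8 genes of the Cxcl12-rich perivascular niche of bone marrow, 5 reached 10 CPM and 1, Lepr, was past 2-fold, at 34.5 CPM in LI and 85.9 CPM in SI. Kitl held 60.8 and 106 CPM, Igf1 362 and 305 CPM and Pdgfrb 70.3 and 72.7 CPM.

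Finally, the class profiles of the 7 were set beside each other and beside all genes, over 22 profiles (11 classes in 2 libraries) and with Pearson's r of log2(CPM + 1) as a description. The closest pair of members was Cxcl1 and Cxcl2 (0.83), followed by Cxcl12 and Cxcl16 (0.74), Cxcl12 and Cxcl13 (0.69) and Cxcl13 and Cxcl16 (0.60), while Cxcl5 and Cxcl14 reached at most 0.37 with any other member. Among 11339 genes, the profile most like that of Cxcl1 was that of Il6 (0.96), a cytokine on the NF-kB list, and then Tmem88 (0.93) and Ptp4a1 (0.91). Cxcl2 was most like Trim30a (0.93) and Nfkbia (0.91), Cxcl12 like Igsf10 (0.92), Rhobtb3 (0.91) and Arsj (0.91), and Cxcl16 like Zmynd15 (0.88), Ncam1 (0.84) and Scube1 (0.84). For Cxcl13 (Ssh2 and Gm11744, 0.77 each, and Kcnk2, 0.75), Cxcl14 (Rbp4, Col12a1 and Il1rl1, 0.79 each) and Cxcl5 (Hdlbp 0.71, Git1 0.70 and Prdx6 0.69) the nearest profiles were less like. The profiles share libraries and differ in depth and number of cells, so no p is given.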

How the data were processed

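Single-cell libraries of sorted graft MSC were made by the authors with a Chromium 3′ v3 or 5′ kit, and Cell Ranger 3.1.0, Seurat 3 and the mm10 build are named in the submitters' processing notes. The deposited matrices hold raw UMI counts per gene and cell barcode, not normalized, as the values also show. They were read as counts, 63348069 UMIs in LI and 54918006 in SI, and no deposited column of another sample was used.

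A cell was kept if 500 or more genes had a UMI and mitochondrial genes took no more than 10% of its UMIs. Lineages were gated by the number of listed markers with a UMI (4 for fibroblasts, pericytes, SMC and ICC, or 3 including Kit for ICC; 3 for all others and for fibroblast subsets); cells of more than 1 lineage (40 and 28) and ungated cells (151 and 186) were left out. Thresholds were set after marker detection was seen, from the markers alone. Doublets were not removed in the main analysis; as an alternative the cells with the highest Scrublet scores were removed, at an assumed rate of 0.8% per 1000 barcodes. The members and the gene lists were chosen with earlier results of these data known. Members are given in full, list genes by count with values for those at 10 CPM or more (at most 4 of the longer lists, by level; Ptgs2 and Lif were named after their values were seen), and likeness by the 3 highest Pearson correlations, of which 1 for Cxcl2 is not reported here.

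Counts of a class were pooled to CPM. Log2 ratios use a pseudocount of 1 CPM, and 2-fold means a log2 difference of at least 1. Levels have exact Poisson, shares Clopper-Pearson and ratios exact binomial-split intervals at 95%, covering counting error only. Floors are 3 UMIs. For shares each cell was thinned to 2000 UMIs, leaving out shallower cells. With 1 library per group no test was run. The ratio code was tested on simulated data. Promoters are from RefSeq.

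Alternatives were clusters in place of gates, stricter gates, doublet removal, each sex alone, per-cell means, thinning, other pseudocounts and filters, and omission of the highest cells. Python 3.11.15 was used with numpy 2.4.6, scipy 1.17.1, pandas 2.3.3, scanpy 1.11.5, leidenalg 0.10.2, scikit-learn 1.9.0 and matplotlib 3.10.9.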

Additional observations from a re-analysis of the deposited data

Results flagged for a closer look

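Differences of direction between the grafts, or between classes, are given here as values on the log2 scale. None of them was tested, since each group is 1 library.

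For Cxcl12, male over female fibroblasts stood at 0.46 in SI and -2.62 in LI, a difference of 3.08. For Cxcl2 the same contrast was 1.35 in LI and -0.19 in SI, 1.54 apart, and for Cxcl14 it was 0.77 and -0.26, 1.03 apart.

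Along the NF-kB ranking, Cxcl14 was higher in the top 25% of cells in LI (0.99) and lower in SI (-3.04), which is 4.03 apart, and Cxcl12 was lower in LI (-0.61) and higher in SI (0.41), 1.02 apart. Along the immediate early and heat shock ranking, Cxcl2 differed by -0.29 in LI and 4.11 in SI, 4.40 apart, and Cxcl16 by 0.24 and -0.96, 1.20 apart.

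The ratio of LI over SI also changed sign between fibroblast subsets. For Cxcl14 it was 5.01 in Pi16 FB and -0.79 in PDGFRAhi FB, 5.80 apart. For Cxcl13 it was 2.03 in Pi16 FB (89 and 6 UMIs) and -2.03 in PDGFRAhi FB, 4.06 apart, where 1 SI cell held 161 of 279 UMIs. For Cxcl2 it was 0.79 in Pi16 FB and -2.25 in Fgfr2 FB, 3.04 apart. In Pi16 FB this ratio favored LI in female cells (267 against 152 CPM). It favored SI in the 51 LI and 57 SI male cells (108 against 177.5 CPM). For Cxcl5 it was 1.58 in CD81 FB and -2.33 in Fgfr2 FB, 3.91 apart, but in female cells alone it was -1.90 and -2.62, with no change of sign, and in male CD81 FB it was 2.61. For Cxcl12 it was 0.41 in Fgfr2 FB and -1.17 in CD81 FB, 1.58 apart, and in female cells alone 0.49 and -0.09. In LI 29.6% of called CD81 FB and 1.63% of called Fgfr2 FB were male.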

How the results depend on the processing

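No paired analysis was possible because each group has 1 library, and for the same reason no replicate could be left out. Of 46 alternative values of the counts, 31 lay within 1.5 times the reported count and 15 did not, and of 84 alternative ratios, 50 lay within the counting interval of the reported ratio, 29 lay outside it with the same sign and 5 changed sign. The 1 member past 2-fold between the grafts became 0 with the mean of per-cell CPM (Cxcl14 at 0.99), 3 in female cells (Cxcl2, Cxcl5 and Cxcl14), 4 in male cells (Cxcl5, Cxcl12, Cxcl13 and Cxcl14), 2 after thinning to 2000 UMIs (Cxcl2 and Cxcl14) and 2, the same genes, without the 1% of cells with the most UMIs of each gene, a count added after seeing the data; there Cxcl2 was at -1.57, Cxcl5 at -0.97 and Cxcl13 at -0.90. The 304 genes past 2-fold became 1108 in male cells and 546 with no minimum CPM, and the share of them higher in LI, 54.3%, was 40.7% in male cells and 47.2% with clusters in place of gates. The 2 members highest in the same class became 4 with clusters in place of gates (Cxcl12, Cxcl13, Cxcl14 and Cxcl16). They became 3 with Cxcl14 added under per-cell means or thinning. Cxcl13 was added instead under doublet removal, stricter gates or without the highest cell of each class. Cxcl2 was added under the looser cell filter and Cxcl5 in female cells. The main count compared 11 classes, clusters 6, doublet removal and stricter gates 10 and female cells 9. Shares over all genes at these lower numbers of classes are not given. Male cells left only 4 classes to compare, without Fgfr2 FB, of which LI had 14 male cells. Among those classes the 2 members were Cxcl2 and Cxcl12, the latter in CD81 FB. Whether Fgfr2 FB led in male cells was thus not compared. The 1 that was also 2-fold above the other cells became 2 with doublets removed, per-cell means, female cells or thinning, 3 with clusters and 0 in male cells, and 2 (Cxcl13 and Cxcl16) without the highest cell of each class, an alternative chosen after seeing the data. The ratios that changed sign were Cxcl12 (0.24) and Cxcl16 (0.08) in female cells and Cxcl1 (0.20), Cxcl2 (0.48) and Cxcl5 (1.41) in male cells. Over 12 alternatives the log2 ratio of Cxcl14 ran from 0.99 to 2.28 and that of Cxcl13 from -1.65 to -0.02, the only members with 1 sign throughout. All 14 shares of positive fibroblasts were lower when cells were thinned to 1000 UMIs, as fewer UMIs must give. Otherwise the cause was not tested. Cxcl5 and Cxcl13 rest on the fewest UMIs, with between 919 and 1132 UMIs each per library in fibroblasts.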
